A study of Mus musculus with 4 samples.

Results

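The cells described here were germ cells of the neonatal mouse testis with at least 1 *Neurog3* transcript counted, 336 of the 1699 germ cells found among 17432 droplet barcodes. They were chosen by measured values. A barcode needed at least 8000 unique molecular identifiers (UMIs, each 1 captured RNA molecule), at most 20% mitochondrial UMIs, and at least 10 UMIs of the germ cell genes *Ddx4* and *Dazl* together. The stromal genes *Col1a1*, *Col1a2*, *Col3a1* and *Dcn* and the Sertoli cell genes *Cst12*, *Cst9*, *Rhox8*, *Amh* and *Aard* each had to sum to under 0.3% of its UMIs. Of these germ cells, those with 1 or more *Neurog3* UMIs and under 3 UMIs of *Meioc*, a gene of meiotic entry, were kept. Control mice gave 293 of the cells and *Cnot3*-cKO mice gave 43.

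Testes were taken at postnatal day 8 and sorted for cells carrying CD9 and THY1. Control mice are labelled wild-type, and the series describes them as *Cnot3*flox/flox without Cre. *Cnot3*-cKO mice were *Cnot3*flox/flox; *Ddx4*-creER, so that Cre is made in *Ddx4*-expressing germ cells and acts after 4-OHT (4-hydroxytamoxifen). Both genotypes received 4-OHT injections from postnatal day 1. The labels give the last injection as day 1 or 2 for the control samples and day 3 or 4 for the *Cnot3*-cKO samples. These days run on by 1 from sample to sample and the study's methods describe 1 schedule, so the labels may hold an entry error, and a true difference could not be told apart from genotype. Each genotype had 2 labelled samples whose names differ in a prefix, NS or NOV, and whether they are separate suspensions or 2 sequencing runs of the same one is not given in the sources used here. The deposited table merges them into 1 library, of 181550221 UMIs for control and 168770743 for *Cnot3*-cKO. There was thus 1 library for each genotype, no replicate check, and no test of a difference between genotypes. Intervals in parentheses are 95% intervals for counting error only.

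In the mouse testis, spermatogonial stem cells express *Gfra1*, the receptor subunit for the niche factor GDNF, and give rise to chains of progenitor spermatogonia. *Neurog3* encodes a basic helix-loop-helix transcription factor that marks such progenitors, and in the pancreas the same factor starts the endocrine programme. Under retinoic acid, progenitors become differentiating spermatogonia, which express the receptor tyrosine kinase *Kit*. CNOT3 is a subunit of the CCR4-NOT complex, which shortens poly(A) tails of mRNA.

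In GRCm38, *Neurog3* lies on chromosome 10 at positions 62133090 to 62134763. *Upp1* (uridine phosphorylase) lies on chromosome 11 at 9118103 to 9136170 and *Foxf1* (a forkhead factor) on chromosome 8 at 121084386 to 121088144. With the homeobox factor gene *Onecut2*, they are the markers given for this cell type besides *Neurog3*. Basic helix-loop-helix factors bind E-boxes, so the 250 bases upstream of the start site are shown for *Neurog3*, for *Upp1*, and for *Cxcl12* and *Ddit4*, which were among the 12 genes most raised in the cells. The sequences are from RefSeq (GRCm38.p6), 5′ to 3′ on the gene's strand, and capitals mark matches to the E-box CANNTG. The windows are chr10:62132840-62133089 on the plus strand for *Neurog3*, chr11:9117758-9118007 on the plus strand for *Upp1*, chr6:117168285-117168534 on the plus strand for *Cxcl12* and chr10:59951771-59952020 on the minus strand for *Ddit4*. They lie upstream of the RefSeq starts, which differ from the GENCODE gene limits for *Upp1* and *Ddit4*. In GENCODE *Ddit4* reaches to 59951834, inside its window, and the *Upp1* window stops short of the gene start given above.
Neurog3: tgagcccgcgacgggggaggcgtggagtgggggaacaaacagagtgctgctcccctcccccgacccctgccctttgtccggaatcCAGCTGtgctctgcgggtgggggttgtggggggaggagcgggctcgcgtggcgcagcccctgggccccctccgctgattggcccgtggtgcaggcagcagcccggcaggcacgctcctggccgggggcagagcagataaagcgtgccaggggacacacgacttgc
Upp1: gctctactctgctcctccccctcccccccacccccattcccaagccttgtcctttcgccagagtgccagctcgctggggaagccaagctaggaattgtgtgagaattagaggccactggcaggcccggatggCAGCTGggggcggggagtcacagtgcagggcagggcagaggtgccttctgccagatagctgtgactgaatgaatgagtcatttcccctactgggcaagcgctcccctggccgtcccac
Cxcl12: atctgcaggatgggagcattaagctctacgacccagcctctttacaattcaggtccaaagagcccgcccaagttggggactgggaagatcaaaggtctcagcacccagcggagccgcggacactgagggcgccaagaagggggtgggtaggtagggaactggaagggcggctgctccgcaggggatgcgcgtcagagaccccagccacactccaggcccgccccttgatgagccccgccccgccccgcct
Ddit4: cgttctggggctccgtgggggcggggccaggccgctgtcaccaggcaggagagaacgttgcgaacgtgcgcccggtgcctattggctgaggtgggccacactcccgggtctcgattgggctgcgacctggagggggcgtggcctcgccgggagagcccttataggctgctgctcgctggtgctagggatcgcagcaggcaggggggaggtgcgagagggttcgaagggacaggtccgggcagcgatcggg
*Neurog3* and *Upp1* each held 1 match, in both cases CAGCTG, and *Cxcl12* and *Ddit4* held 0. CANNTG reads the same on both strands. Of all 27025 such windows in the table, 66.0% held CANNTG and 14.5% held CAGATG on either strand, a form that CANNTG includes. Of the 10 of those 12 genes with a window, 5 (50%) held CANNTG and 0 held CAGATG. A match is a description, not a binding site.

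*Neurog3*-positive cells made up 24.5% (22.1 to 27.0) of 1196 control germ cells and 8.55% (6.26 to 11.3) of 503 *Cnot3*-cKO germ cells. Thinning each cell to 8000 UMIs left shares of 9.03% (7.47 to 10.8) and 2.19% (1.10 to 3.88). *Neurog3* counts chose the cells, so these shares are a description of the 2 libraries, with no test. Median depth was similar, with 42137 UMIs in control germ cells and 46017 in *Cnot3*-cKO. In Sertoli cells, which should lack *Neurog3*, 3 of 2871 control cells (0.104%) and 0 of 4326 *Cnot3*-cKO cells held a UMI, which allows a share of up to 0.0693%, at median depths of 13309 and 12790 UMIs. Thinned to 8000 UMIs, the control Sertoli share was 0.0697%. Fewer germ cells were also found in the *Cnot3*-cKO library, 5.48% of its 9178 barcodes against 14.5% of 8254 in control, and every share was set in part by the sort.

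Most of the cells held few *Neurog3* molecules. A single UMI was counted in 160 of the 293 control cells (54.6%) and in 28 of the 43 *Cnot3*-cKO cells (65.1%). The highest count was 15 in control and 6 in *Cnot3*-cKO. Summed over the cells, there were 643 UMIs or 46.8 CPM (counts per 1000000 UMIs, 43.2 to 50.5) in control and 74 UMIs or 31.7 CPM (24.9 to 39.8) in *Cnot3*-cKO. The cells held 78.6% of the 818 *Neurog3* UMIs of the control library and 74% of the 100 of the *Cnot3*-cKO library.

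**Figure D1:**
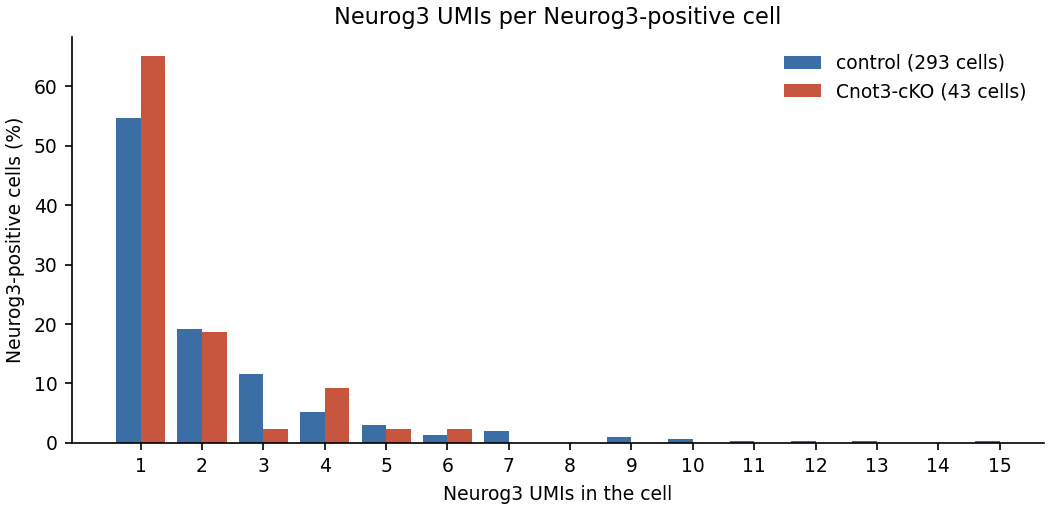
Share of *Neurog3*-positive cells (y axis, percent of the library's cells) by the number of *Neurog3* UMIs in the cell (x axis), for 293 control and 43 *Cnot3*-cKO cells. Cells with 1 UMI are the most frequent in both libraries, at 54.6% and 65.1%, and counts above 6 were seen in control cells only.

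Just inside and outside the limits, 35 control and 6 *Cnot3*-cKO cells held 2 *Meioc* UMIs, while 9 and 0 *Neurog3*-positive germ cells held 3. A somatic limit left out 27 and 4 further *Neurog3*-positive barcodes with enough germ cell UMIs. Among cells with 3 or more *Meioc* UMIs, 20 of 115 in control (17.4%) and 1 of 51 in *Cnot3*-cKO (1.96%) held *Neurog3*. The 336 cells were deep, with medians of 46306 (control) and 50471 (*Cnot3*-cKO) UMIs, 7004 and 7459 detected genes, and 10.8% and 9.01% mitochondrial UMIs. A doublet caller marked 20 control cells (6.83%) and 2 *Cnot3*-cKO cells (4.65%), which stayed in. Of the 18 barcodes shared by the libraries, 0 belonged to these cells. Free RNA made up an estimated 7.60% and 6.27% of their UMIs. The summed level of 10 Sertoli markers was 364 CPM in control and 416 CPM in *Cnot3*-cKO, against 9498 CPM in control Sertoli cells, and 10 stromal markers summed to 182 and 130 CPM against 10707 CPM in control stromal cells. Markers of myoid, Leydig, macrophage, endothelial and erythroid cells summed to between 0.428 and 52.7 CPM.

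The marker genes named for this cell type were high in the cells. These markers and the progenitor list were chosen with earlier results of these data known, so their levels are a description and no independent support. *Upp1* was at 109 CPM (104 to 115) in the control cells and 90 CPM (78.2 to 103) in the *Cnot3*-cKO cells. A *Upp1* UMI was present in 80.2% of the control cells and 43.8% of *Neurog3*-negative control germ cells, and after thinning in 46.8% and 17.8%. In control Sertoli cells the shares were 1.78% and 1.11% after thinning. In *Cnot3*-cKO, 72.1% of the cells and 55.3% of the negatives held *Upp1*, and 39.5% and 23.5% after thinning. *Neurog3*-negative cells here are the 788 control and 409 *Cnot3*-cKO germ cells with 0 *Neurog3* UMIs and under 3 *Meioc* UMIs, with median depths of 41358 and 45336 UMIs. Read the other way, *Neurog3* was found in 11.6% of control cells without a *Upp1* UMI, in 22.6% of those with 1 or 2 and in 55.2% of those with 3 or more. The same shares in *Cnot3*-cKO were 6.15%, 9.45% and 14.6%. Median depth in these classes ran from 40029 to 48246 UMIs in control and from 43220 to 49588 in *Cnot3*-cKO.

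Of these 3 markers, *Onecut2* had the largest ratio between the libraries. It stood at 39.9 CPM (36.7 to 43.4) in the control cells, with a UMI in 151 of 293 (51.5%), and at 11.1 CPM (7.28 to 16.3) in the *Cnot3*-cKO cells, with a UMI in 6 of 43 (14.0%). After thinning the shares were 21.8% and 6.98%, against 5.96% and 2.69% in the negatives and 0.488% in control Sertoli cells. Of the 26 *Onecut2* UMIs of the *Cnot3*-cKO cells, 12 came from 1 cell. *Foxf1* was at 92.6 CPM (87.5 to 97.8) and 64.7 CPM (54.8 to 75.9), and 74.7% and 55.8% of the cells held it.

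The cells were set beside 3 groups of *Neurog3*-negative germ cells. The *Gfra1* group held 2 or more *Gfra1* UMIs and under 3 of *Kit* (181 control and 160 *Cnot3*-cKO cells), the *Kit* group held 3 or more *Kit* UMIs and under 2 of *Gfra1* (255 and 74), and the rest numbered 352 and 175. Of 10 progenitor genes that passed the UMI limit in control, 9 were higher in the *Neurog3*-positive cells than in the *Gfra1* group, with a median log2 ratio of 1.23, and 9 higher than in the *Kit* group, with a median of 2.71. In control, *Upp1* was at 37.1 CPM in the *Gfra1* group, 109 CPM in the *Neurog3*-positive cells and 4.00 CPM in the *Kit* group, and *Onecut2* was at 4.30, 39.9 and 2.35 CPM in the same order. *Foxf1* was at 49.7, 92.6 and 2.17 CPM. The retinoic acid receptor gene *Rarg* was at 6.05, 28.6 and 8.25 CPM. In *Cnot3*-cKO the same order of groups was seen for *Upp1* (42.7, 90 and 8.40 CPM), *Onecut2* (2.93, 11.1 and 0.542 CPM), *Foxf1* (38.1, 64.7 and 3.52 CPM) and *Rarg* (3.83, 17.1 and 8.67 CPM). For *Rarg* the *Gfra1* group was the lowest in both libraries, whereas for the others the *Kit* group was.

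*Sox3*, an HMG-box factor of undifferentiated spermatogonia, was not low in the *Kit* group. It was at 38.6 CPM in the control *Gfra1* group, 123 CPM in the *Neurog3*-positive cells and 83.6 CPM in the *Kit* group, and at 42.2, 120 and 79.9 CPM in *Cnot3*-cKO. *Sohlh1*, a helix-loop-helix factor needed for differentiation, was likewise highest in the *Neurog3*-positive cells, at 165, 312 and 220 CPM in control and 223, 372 and 289 CPM in *Cnot3*-cKO. *Nanos3*, an RNA-binding protein gene, was at 48.9, 73.1 and 5.91 CPM in control. The stress-induced mTOR inhibitor gene *Ddit4* was at 18.3, 62.3 and 3.65 CPM in control, but it also reached 55.1 CPM in Sertoli cells and is not specific to germ cells.

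**Figure D2:**
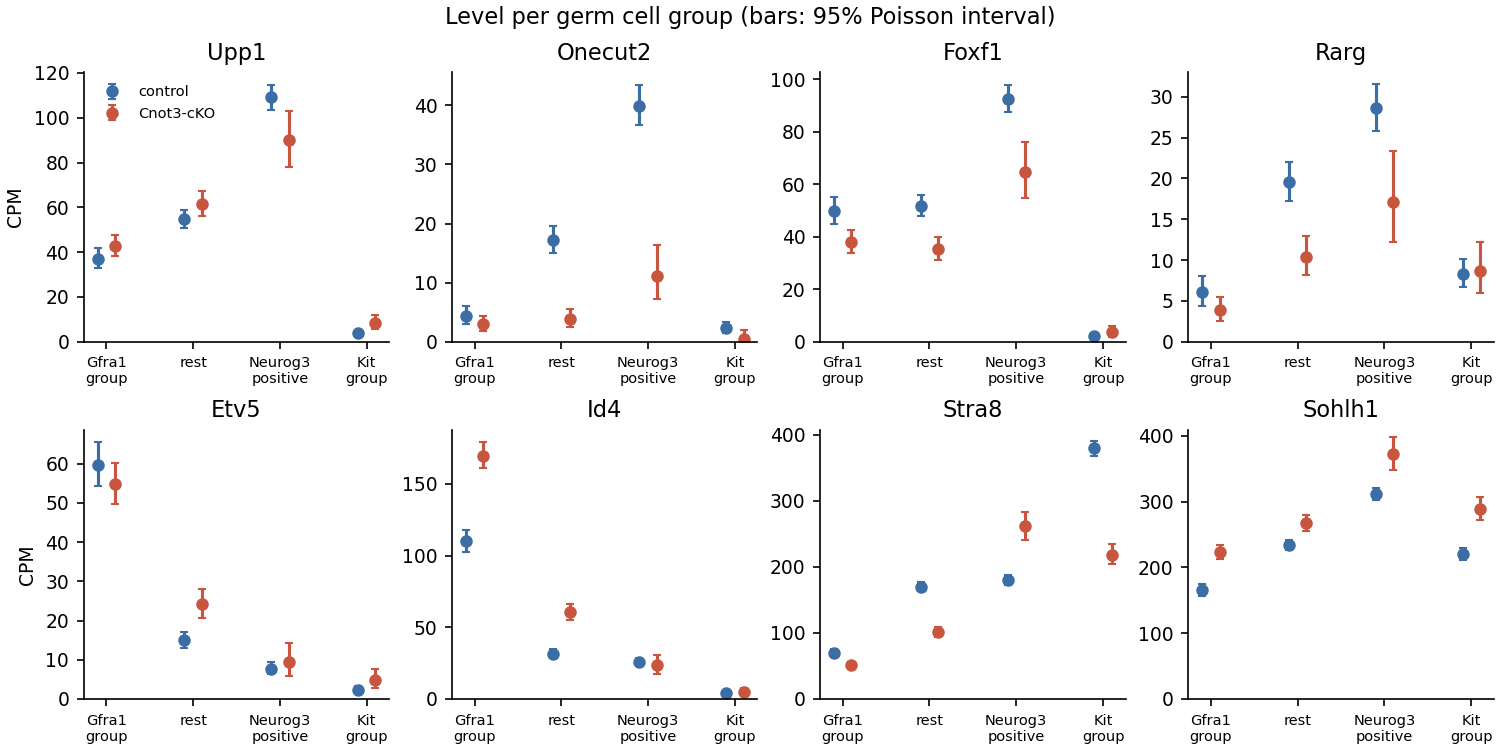
Level in CPM (y axis, from 0) of 8 genes in 4 groups of germ cells (x axis) of the control and *Cnot3*-cKO libraries, where bars are 95% Poisson intervals of the summed UMIs. *Upp1*, *Onecut2*, *Foxf1* and *Rarg* are highest in *Neurog3*-positive cells, *Etv5* and *Id4* in the *Gfra1* group, and *Stra8* in the control *Kit* group at 379 CPM but in the *Neurog3*-positive cells of *Cnot3*-cKO at 261 CPM.

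Stem cell genes lay between the *Gfra1* and *Kit* groups. Of the 16 that passed the UMI limit against the control *Gfra1* group, 15 were below 0, with a median log2 ratio of -2.52, and all 12 that passed against the *Kit* group were above 0, with a median of 2.16. Both groups were picked by their *Gfra1* and *Kit* UMIs. The direction of *Gfra1* itself was thus set in part by that choice, and so was any count or median that takes it in. *Etv5*, an ETS factor induced by GDNF, was at 59.7 CPM in the control *Gfra1* group, 7.71 CPM in the *Neurog3*-positive cells and 2.17 CPM in the *Kit* group. *Lhx1*, a LIM homeobox factor, was at 44.9, 4.95 and 0.174 CPM, and *Id4*, an inhibitor of helix-loop-helix factors that marks stem cells, at 110, 25.7 and 4.26 CPM. In *Cnot3*-cKO the values were 54.7, 9.43 and 4.88 CPM for *Etv5* and 170, 23.6 and 4.88 CPM for *Id4*. *Ret*, the GDNF co-receptor, was at 108, 36.7 and 3.30 CPM in control. *Egr4*, an early growth response factor, had another order, with 219 CPM in the control *Gfra1* group, 329 CPM in the *Neurog3*-positive cells and 39.2 CPM in the *Kit* group. Of the control *Neurog3*-positive cells, 45.4% held neither a *Gfra1* nor a *Kit* UMI, 20.5% held *Gfra1* only, 29.0% *Kit* only and 5.12% both. The *Cnot3*-cKO shares were 23.3%, 23.3%, 39.5% and 14.0%, of 43 cells.

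Over all 11724 genes with at least 100 UMIs in control, 146 (1.25%) were more than 2-fold higher and 134 (1.14%) more than 2-fold lower in *Neurog3*-positive than in *Neurog3*-negative germ cells, with a median log2 ratio of -0.01. Genes the selection used were left out. Somatic marker sums moved with this comparison. Sertoli markers summed to 364 CPM in the control cells and 348 CPM in the negatives. Of the 9 that passed, 7 were above 0, with a median of 0.33. Stromal markers summed to 182 and 128 CPM, with 6 of the 9 that passed above 0 and a median of 0.19. The highest of them was *Ptch1*, at 1.16, which made up a large share of the 182 CPM. Free RNA, estimated from Sertoli genes and so not a separate measure, was 7.60% and 6.21%. In *Cnot3*-cKO the sums were 416 and 508 CPM for Sertoli markers and 130 and 156 CPM for stromal ones, and free RNA 6.27% and 6.80%. The part of somatic RNA in the ratios was not tested. Of 13 progenitor genes, 10 passed the UMI limit, 6 of them past 2-fold higher, with a median of 1.12. These were *Onecut2* at 2.16 (1.95 to 2.37), *Ddit4* at 1.84, *Upp1* at 1.74 (1.62 to 1.85), *Foxf1* at 1.46 (1.34 to 1.58), *Rarg* at 1.20 and *Nanos3* at 1.04 (0.92 to 1.16). The POU factor gene *Pou3f1* stood at -0.00 (-0.11 to 0.10). *Neurod1*, which NEUROG3 activates in the pancreas, had 6 UMIs and *Pax4* had 0 UMIs in the control cells, and both were under the UMI limit.

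In *Cnot3*-cKO, 45 of 10291 genes (0.437%) were past 2-fold higher and 209 (2.03%) past 2-fold lower in the 43 *Neurog3*-positive cells. Of the progenitor list 9 genes passed the UMI limit and 4 were past 2-fold higher, with a median of 0.92 against 0.02 over all genes. *Upp1* was at 1.05 (0.83 to 1.27), *Foxf1* at 1.09 (0.83 to 1.35), *Rarg* at 1.22 (0.68 to 1.74) and *Sox3* at 1.01 (0.81 to 1.20). With a mitochondrial limit of 10% all 4 were under 2-fold, at 0.90, 0.55, 0.91 and 0.91 in that order. Without the cell of most UMIs in each library, *Upp1* was at 0.92, *Foxf1* at 0.95 and *Sox3* at 0.98. *Onecut2* stood at 1.99 (1.26 to 2.70) but under the UMI limit. *Ddit4* was at 0.75 (0.43 to 1.06). Of the 9 genes 8 were above 0, and *Pou3f1* was at -0.37 (-0.63 to -0.11).

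Of 22 stem genes 16 passed the limit in control, 9 were past 2-fold lower and 0 past 2-fold higher, and the list's median was -1.04. *Nefm*, a neurofilament gene, was lowest at -2.40 (-2.76 to -2.05), and *Etv5* was at -1.42 (-1.73 to -1.12). In *Cnot3*-cKO 10 of 16 were past 2-fold lower, with a median of -1.35, among them *Lhx1* at -2.41 (-3.63 to -1.41) and *Id4* at -2.01 (-2.42 to -1.62). Genes of undifferentiated spermatogonia were split, with a median of 0.15 in control and 0.16 in *Cnot3*-cKO over 13 genes and 0 past 2-fold. *Zbtb16*, the zinc finger factor also called PLZF, was higher at 0.72 (0.64 to 0.80) in control and 0.44 (0.24 to 0.63) in *Cnot3*-cKO. The adhesion molecule gene *Epcam* was lower, at -0.92 (-1.01 to -0.83) and -0.46 (-0.61 to -0.32).

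Differentiation genes had medians on either side of 0 in the 2 libraries, a difference that was not tested. The negatives they were set against differed in mix. The *Kit* group was 255 of 788 negatives in control and 74 of 409 in *Cnot3*-cKO, and the *Gfra1* group 181 and 160. The part of this mix in the ratios was not tested. In control, 3 of 12 were past 2-fold lower and 0 higher, with a median of -0.53. *Kit* was at -0.71 (-0.86 to -0.56) and *Dmrtb1*, a regulator of the switch from mitosis to meiosis, at -1.47. In *Cnot3*-cKO 1 was past 2-fold higher, with a median of 0.13. The list's lone gene past 2-fold there was *Stra8*, the retinoic acid target of meiotic entry. It was at 180 CPM (173 to 187) in the control *Neurog3*-positive cells and 221 CPM in the negatives, which is -0.30 (-0.37 to -0.23) as a log2 ratio. The *Cnot3*-cKO levels were 261 CPM (241 to 283) and 103 CPM, which gave a ratio of 1.34 (1.21 to 1.47). *Stra8* UMIs were found in 233 of the 293 control cells and 31 of the 43 *Cnot3*-cKO cells. No single cell set this value, since the ratio was 1.24 without the cell of most *Stra8* UMIs. It was -0.27 where cells over an upper depth bound, set on the barcodes used here, were left out, which leaves 2 *Cnot3*-cKO cells.

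**Figure D3:**
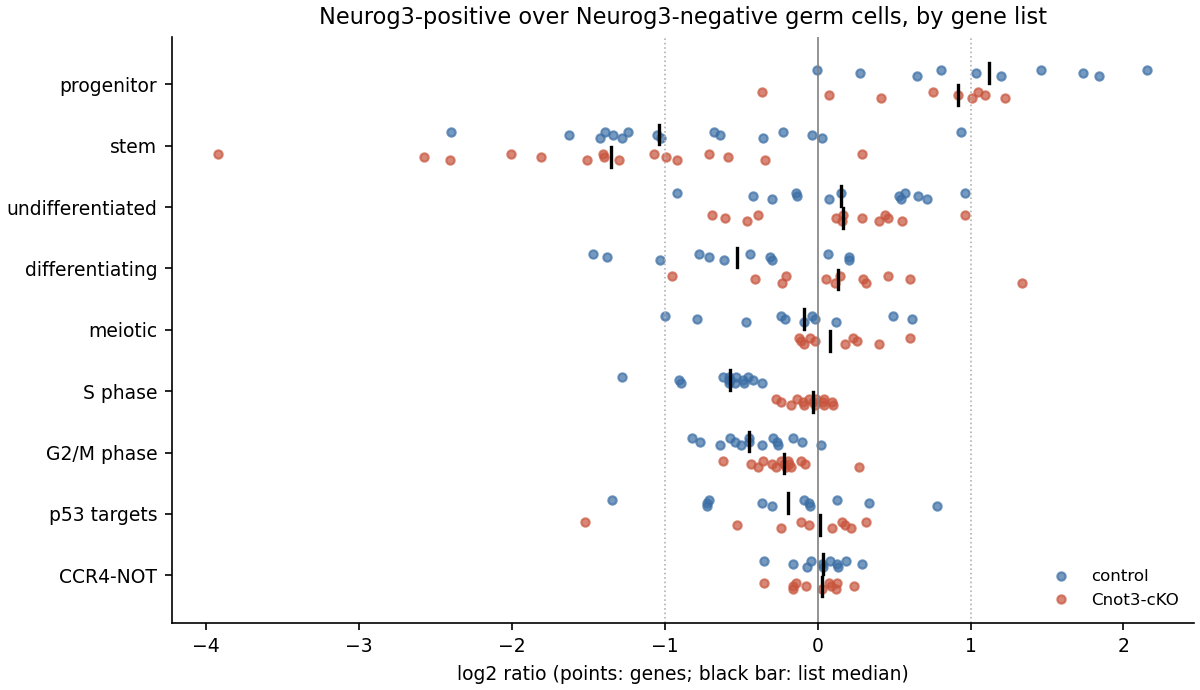
Log2 ratio (x axis) of *Neurog3*-positive over *Neurog3*-negative germ cells for the genes of 9 lists (y axis) that passed 100 UMIs, where each point is a gene and black bars are list medians, with control above *Cnot3*-cKO. Most progenitor genes lie to the right, with medians of 1.12 and 0.92, most stem genes to the left, with -1.04 and -1.35, and all 15 S phase genes lie left of 0 in control.

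Cell cycle genes were lower in the control *Neurog3*-positive cells. All 15 S phase genes were below 0, with a median of -0.57 and 1 past 2-fold, the ribonucleotide reductase gene *Rrm2* at -1.28 (-1.48 to -1.09). Of 15 G2/M genes 14 were below 0, with a median of -0.45. The replication helicase gene *Mcm2* was at 100 CPM (94.8 to 105) in the control cells, and the proliferation marker gene *Mki67* at 58.7 CPM (54.7 to 62.9). In *Cnot3*-cKO the S phase median was -0.03 and the G2/M median -0.22, with 0 genes of either list past 2-fold. Meiotic genes had medians of -0.09 over 11 genes in control, with 1 past 2-fold lower, the recombination site factor gene *Prdm9* (-0.43 at a mitochondrial limit of 10%), and 0.08 over 10 genes in *Cnot3*-cKO.

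Of 17 partners and inhibitors of helix-loop-helix factors 10 passed the limit in control and 0 were past 2-fold, with a median of 0.04. *Tcf3* and *Tcf12*, which encode the E proteins that pair with such factors, were at 134 and 63.4 CPM in the control cells and 138 and 69.4 CPM in the *Cnot3*-cKO cells. Of the Notch genes, which repress *Neurog3* in the pancreas, 12 of 13 passed in control. Of these 9 were below 0, with a median of -0.31 against -0.01 over all genes, of which 47.9% were above 0. The fringe gene *Mfng* was past 2-fold higher at 1.06 (0.67 to 1.45) and another, *Lfng*, past 2-fold lower, both close to the limit. In *Cnot3*-cKO 8 passed, with a median of -0.06. Against the control *Gfra1* group alone the Notch median was 0.02 over 8 genes, 5 of them above 0. Against the control *Kit* group it was -0.30 over 9 genes, 6 of them below 0. Of 14 endocrine targets of NEUROG3 only 2 passed the limit in control and 1 in *Cnot3*-cKO. Of 16 retinoic acid genes 11 passed and 0 were past 2-fold in control, with *Rara*, the receptor of spermatogonia and Sertoli cells, at 0.38 (0.19 to 0.56).

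The 12 genes with the highest lower limits in control were *Onecut2*, *Cxcl12*, *Ddit4*, *Ifitm1*, *Nr2e1*, *Upp1*, *Ly6g6c*, *Ly6g6e*, *Rspo1*, *Snai1*, *Rin2* and *Xist*. *Cxcl12*, a chemokine gene, was at 30.5 CPM (27.6 to 33.6) in the control *Neurog3*-positive cells, 2.55 CPM in the *Gfra1* group and 3.21 CPM in the *Kit* group, a ratio to all negatives of 1.99 (1.76 to 2.22). In *Cnot3*-cKO it was at 11.6 CPM (7.62 to 16.8), with a ratio of 1.03 (0.37 to 1.65). That ratio was 0.63 (-0.14 to 1.33) without the cell of most *Cxcl12* UMIs in each library and 0.06 (-1.05 to 1.01) at a mitochondrial limit of 10%. *Rspo1*, a Wnt signal enhancer gene, was at 17.3 CPM (15.2 to 19.7) in 126 of 293 control cells and at 1.71 CPM (0.467 to 4.39) in 3 of 43 *Cnot3*-cKO cells. Its ratio to the negatives was 1.85 (1.55 to 2.15) in control. The zinc finger repressor gene *Snai1* was at 1.72 (1.47 to 1.97) in control and 0.50 (-0.22 to 1.16) in *Cnot3*-cKO. *Ifitm1*, an interferon-induced membrane protein gene, was at 1.88 (1.64 to 2.12) and 0.59 (-0.22 to 1.33), and without 1 *Cnot3*-cKO cell the latter was -0.23. *Rin2*, a Rab5 regulator gene, was nearly as high in both, at 1.71 (1.45 to 1.97) and 1.59 (1.03 to 2.12). *Xist* rested on 71 UMIs in the control cells.

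The 12 genes with the lowest upper limits were *Pf4*, *C1qa*, *C1qb*, *Tyrobp*, *C1qc*, *RP23-309M3.4*, *Lyz2*, *Mrc1*, *F13a1*, *Ctsc*, *Csf1r* and *Apoe*, most of them macrophage genes. They describe the negatives rather than the *Neurog3*-positive cells. Of the 1050 UMIs of 6 macrophage markers in the control negatives, 986 lay in 6 of 788 cells (0.761%), while the 293 *Neurog3*-positive cells held 23 such UMIs and 0 cells with 3 or more. With germ cells of 3 or more macrophage UMIs left out, 146 genes were past 2-fold higher and 106 lower.

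Among the *Neurog3*-positive cells, those with more UMIs of *Neurog3*, the gene that selected them, had higher levels of the progenitor genes. The control cells were split into 160 with 1 UMI, 90 with 2 to 3 and 43 with 4 or more, and the *Cnot3*-cKO cells into 28, 9 and 6. *Upp1* was at 90.5, 113 and 163 CPM in the control classes and 83.0, 92.4 and 117 CPM in the *Cnot3*-cKO classes. *Foxf1* was at 69.7, 107 and 140 CPM in control, *Ddit4* at 40.9, 68.7 and 120 CPM, and *Nanos3* at 57.5, 76.8 and 117 CPM. *Onecut2* was at 32.3, 47.9 and 49.9 CPM, the last pair within their intervals. The 13 progenitor genes summed to 613, 790 and 1005 CPM in control and 457, 627 and 762 CPM in *Cnot3*-cKO.

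Other genes ran the opposite way over the same classes. *Kit* was at 43.7, 26.5 and 8.02 CPM in control and 50.6, 26.9 and 9.03 CPM in *Cnot3*-cKO. *Gfra1* was at 13.1, 7.39 and 4.01 CPM and *Mcm2* at 115, 88.2 and 72.6 CPM in control. *Zbtb16*, like the progenitor genes, was at 131, 167 and 214 CPM, and *Egr4* was at 270, 357 and 468 CPM. *Stra8* was at 224 CPM in control cells with 1 *Neurog3* UMI and at 130 and 127 CPM in the others. A deeper cell is more likely to show several *Neurog3* UMIs, and the part of depth in these classes was not tested.

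**Figure D4:**
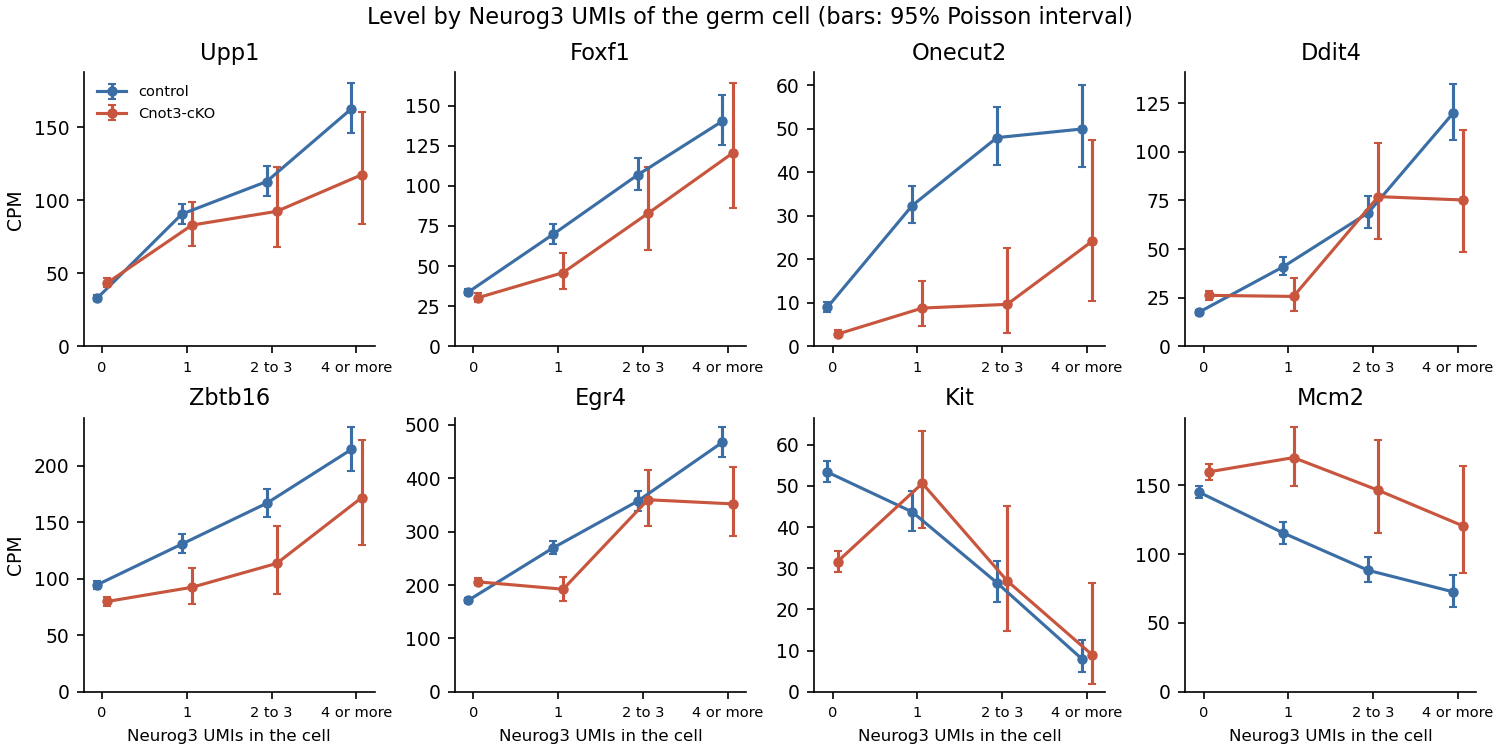
Level in CPM (y axis, from 0) of 8 genes in germ cells with 0, 1, 2 to 3 and 4 or more *Neurog3* UMIs (x axis), in control and *Cnot3*-cKO, where bars are 95% Poisson intervals and cells with 0 are the *Neurog3*-negative germ cells. In control *Upp1*, *Foxf1*, *Ddit4*, *Zbtb16* and *Egr4* are higher in each further class while *Kit* and *Mcm2* are lower, and the *Cnot3*-cKO classes hold 28, 9 and 6 cells.

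Between genotypes, *Cnot3* itself was checked in the *Neurog3*-positive cells. It was at 72.3 CPM (67.9 to 77.0, 994 UMIs) in control and 39.0 CPM (31.4 to 47.9, 91 UMIs) in *Cnot3*-cKO, which is -0.89 (-1.22 to -0.58) as a log2 ratio. In the negatives the ratio was -0.88 (-1.01 to -0.76). Sertoli cells, where Cre is not made, had 63.8 and 67.4 CPM. Whether the 3′ tags of the deposited counts lie in the deleted part is not given in the sources used here. The other CCR4-NOT genes were at between -0.48 and 0.31 with 0 past 2-fold.

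Of 9467 genes with at least 100 UMIs, 89 (0.94%) were past 2-fold higher and 162 (1.71%) past 2-fold lower in *Cnot3*-cKO than in control *Neurog3*-positive cells, with a median of 0.04. All 10 progenitor genes that passed were below 0, with a median of -0.50 and 1 past 2-fold lower. *Onecut2* was at -1.84 (-2.47 to -1.28), the RNA-binding protein gene *Lin28a* at -0.80 (-1.10 to -0.51), *Rarg* at -0.74 (-1.25 to -0.27), *Foxf1* at -0.52 (-0.77 to -0.27) and *Upp1* at -0.28 (-0.49 to -0.07). *Sox3* did not differ beyond counting error, at -0.04 (-0.23 to 0.15). The *Neurog3*-positive cells differed in mix between the libraries. Those with 1 *Neurog3* UMI were 54.6% in control and 65.1% in *Cnot3*-cKO, and the shares with *Gfra1* or *Kit* UMIs differed too. The part of this mix in the ratios between genotypes, here and below, was not tested. The negatives held a different mix of the *Gfra1* and *Kit* groups in each library, and its part in their ratios, here and below, was not tested. Among the negatives the ratio was -1.68 (-2.13 to -1.25) for *Onecut2* and -0.76 (-1.05 to -0.48) for *Rarg*, both below 0 as in the *Neurog3*-positive cells. *Upp1* was above 0 in the negatives, at 0.41 (0.27 to 0.54). *Ddit4* was at 0.59 (0.41 to 0.77) in the negatives and at -0.50 (-0.81 to -0.20) in the *Neurog3*-positive cells.

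The stem list showed no common direction, with a median of 0.09 over 12 genes, 1 past 2-fold higher and 1 lower. The lower was *Tcl1*, an AKT coactivator gene, at -1.22 (-2.21 to -0.38). *Nefm* was at 3.09 (2.65 to 3.54), but 65 of its 107 UMIs lay in 1 of the 43 *Cnot3*-cKO cells, and without that cell it was at 2.01. *Gfra1* stood at 9.90 CPM (8.30 to 11.7) and 17.6 CPM (12.6 to 23.8), a ratio of 0.83 (0.29 to 1.34). Differentiation genes had a median of 0.27 over 11 genes with 0 past 2-fold, and *Stra8* was at 0.54 (0.41 to 0.67), whereas in the negatives it was at -1.10 (-1.17 to -1.03).

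Cycle and meiotic genes were higher in the *Cnot3*-cKO cells. Of 15 G2/M genes all were above 0 and 4 past 2-fold, with a median of 0.78, and of 15 S phase genes 14 were above 0 and 2 past 2-fold, with a median of 0.71. The 4 were the cyclin genes *Ccnb1* at 1.09, *Ccnb2* at 1.03 and *Ccna2* at 1.15, and *Cdc20*, an activator of the anaphase-promoting complex, at 1.37. The S phase pair was *Cdc6*, of replication licensing, at 1.02 (0.56 to 1.46), and *Rrm2* at 1.36 (1.03 to 1.69). At a mitochondrial limit of 10%, *Ccnb1* was at 0.93, *Ccnb2* at 0.99 and *Ccna2* at 0.96, under 2-fold. *Cdc6* was at 0.93 without the cell of most *Cdc6* UMIs in each library, and at 0.07 (-1.05 to 1.03) among cells with 2 or more *Neurog3* UMIs. *Rrm2* was at 18.5 CPM (16.3 to 20.9) in control and 47.6 CPM (39.1 to 57.3) in *Cnot3*-cKO. *Mki67* was at 58.7 and 104 CPM. Over the negatives the medians were 0.55 for G2/M and 0.27 for S phase. All 9 meiotic genes that passed were above 0, with a median of 0.58 and 2 past 2-fold. These were *Hormad1*, of the chromosome axis, at 1.25 (1.02 to 1.49) and the cohesin gene *Smc1b* at 1.05 (0.95 to 1.15). In the negatives the meiotic median was 0.47, with 9 of 12 genes above 0 and 0 past 2-fold, so the shift was not confined to *Neurog3*-positive cells. *Smc1b* was at 226 CPM (218 to 234) in control and 468 CPM (441 to 497) in *Cnot3*-cKO.

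Of 15 p53 targets 9 passed and 2 were past 2-fold higher, with a median of 0.29. *Cdkn1a*, the cell cycle inhibitor p21, was at 4.15 CPM (3.14 to 5.37) in 39 of 293 control cells (13.3%) and 21.9 CPM (16.3 to 28.7) in 19 of 43 *Cnot3*-cKO cells (44.2%), a ratio of 2.40 (1.82 to 2.97). *Ccng1*, cyclin G1, was at 38.0 CPM (34.8 to 41.4) and 130 CPM (116 to 145), a ratio of 1.77 (1.56 to 1.98). In the negatives the ratios were 2.21 (1.98 to 2.44) and 1.10 (1.02 to 1.19), so neither was confined to *Neurog3*-positive cells.

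**Figure D5:**
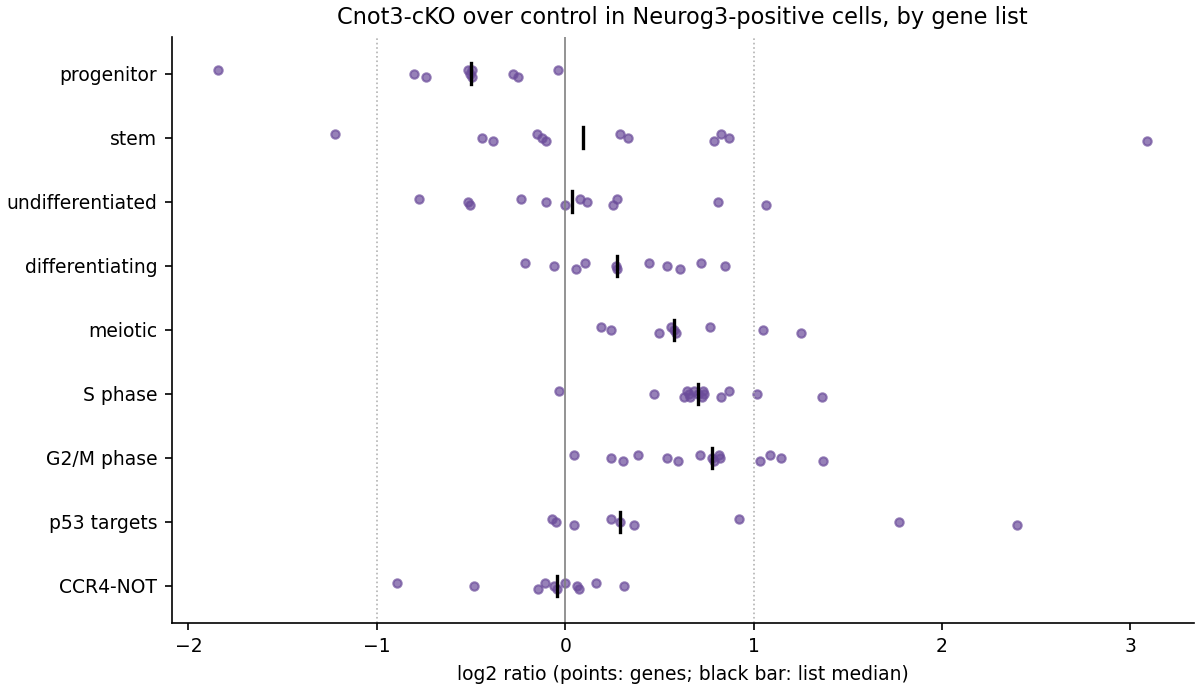
Log2 ratio (x axis) of *Cnot3*-cKO over control in *Neurog3*-positive cells for the genes of 9 lists (y axis) that passed 100 UMIs, where each point is a gene and black bars are list medians. All progenitor genes lie below 0, with a median of -0.50, the S phase and G2/M medians lie at 0.71 and 0.78, and *Cnot3*, at -0.89, is the lowest CCR4-NOT gene.

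Besides these lists, the 8 genes with the highest lower limits were *Olfr655*, *Nefm*, *Slamf1*, *Cdkn1a*, *Ccng1*, *Esr1*, *Gm26785* and *P2rx4*. *Esr1*, the oestrogen receptor alpha gene, was at 4.58 CPM (3.52 to 5.87) in 45 of 293 control cells and 19.3 CPM (14.1 to 25.8) in 27 of 43 *Cnot3*-cKO cells, a ratio of 2.07 (1.49 to 2.65), and in the negatives the ratio was 3.08 (2.69 to 3.50). Of the *Cnot3*-cKO UMIs of the other 4 genes, 1 cell held 97 of 236 for *Olfr655*, 23 of 58 for *Slamf1*, 111 of 296 for *Gm26785* and 29 of 67 for *P2rx4*. Their ratios were 2.95, 2.69, 1.64 and 1.87, and without the top cell of each library 2.60, 2.13, 1.13 and 1.87. Among cells with 2 or more *Neurog3* UMIs, *Gm26785* was at -1.27.

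Of the 8 genes with the lowest upper limits, 7 are named here, *Rspo1*, *F2*, *RP23-41J14.2*, *RP24-273K21.5*, *Onecut2*, *Pabpc4l* and *Trim12c*, and values are given for some of them. For *Rspo1*, 238 control UMIs stood against 4 *Cnot3*-cKO UMIs, a ratio of -3.34 (-5.22 to -1.96), with -1.46 (-2.05 to -0.91) in the negatives. *Trim12c*, a tripartite motif gene, was at 40.7 CPM (37.4 to 44.2) and 11.6 CPM (7.62 to 16.8), a ratio of -1.81 (-2.43 to -1.26), against 0.03 (-0.16 to 0.21) in the negatives. After thinning to 8000 UMIs its ratio was -0.16 (-2.10 to 1.29). *F2*, the prothrombin gene, had 2 UMIs in the *Cnot3*-cKO cells, a ratio of -3.54 (-6.60 to -1.66). *Hey1*, a Notch target that represses transcription, was at 10.3 CPM (8.70 to 12.2) and 3.86 CPM (1.76 to 7.32). The control *Neurog3*-positive cells enter both this comparison and that with the control negatives.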

How the data were processed

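Counts were deposited as the authors' unfiltered Cell Ranger 3.0.1 output on mm10 with Ensembl 93, in raw UMIs without normalisation. How the aligner was set is not given in these sources. Each matrix lists 6794880 barcodes and 30828 genes and merges both samples of a genotype. The study's methods describe runs on 2 sequencers, which could not be separated here, nor could samples.

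UMIs were summed over the cells of a group and library and scaled to 1000000 (CPM) with exact Poisson intervals. Log2 ratios have exact conditional binomial intervals, and shares exact Clopper-Pearson intervals, at 95%. A count of 0 was read as allowing 3. Genes needed 100 UMIs over the groups compared, and the 13 genes of the selection were left out. No p-value, standard error or test of a difference was computed, since each genotype had 1 library. Named genes are the 253 of 21 lists, plus those ranked first by the limits of their ratio's interval, 12 a direction against the negatives in control and 8 a direction between genotypes. Values of 2 of these genes are not reported here. The cells, lists and rules were chosen with earlier results of these data known.

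*Neurog3*-positive cells were compared with germ cells of 0 *Neurog3* UMIs. Cells were thinned to 8000 UMIs for shares. Doublets were called with Scrublet in scanpy 1.11.5 and left out in an alternative. Free RNA was estimated from the Sertoli genes *Clu*, *Tnni3*, *Amhr2*, *Fshr*, *Defb19*, *Sox9* and *Dhh*. Their share of a group's UMIs was divided by their share in barcodes of at most 100 UMIs. Other tools were numpy 2.4.6, scipy 1.17.1, pandas 2.3.3 and matplotlib 3.10.9. The ratio step was tested on simulated data. Positions are those of GENCODE M21, in which 99.8% of gene identifiers matched.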

Additional observations from a re-analysis of the deposited data

Results flagged for a closer look

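For 5 genes the ratio of *Neurog3*-positive over *Neurog3*-negative germ cells was above 0 in 1 library and below 0 in the other, with both counting intervals clear of 0 and the ratios at least 1 apart on the log2 scale. The difference between the libraries was not tested in any of them, since each genotype has 1 library. The mix of the *Gfra1* and *Kit* groups within the negatives also differed between the libraries, and its part in these ratios was not tested. *Stra8* was at -0.30 in control and 1.34 in *Cnot3*-cKO. The ratio of *Olfr655* was -1.25 in control and 1.11 in *Cnot3*-cKO, that of *Slamf1* was -0.85 and 1.78, and that of *P2rx4* was -1.16 and 0.86. *Trim12c* had the opposite order, at 0.99 in control and -0.85 in *Cnot3*-cKO. Of the *Cnot3*-cKO UMIs in *Neurog3*-positive cells, 1 cell held 41.1% for *Olfr655*, 39.7% for *Slamf1* and 43.3% for *P2rx4*, but 10.5% for *Stra8* and 14.8% for *Trim12c*. Without the cell of most UMIs in each library, the *Cnot3*-cKO ratio was 0.39 for *Olfr655*, 1.08 for *Slamf1*, 0.07 for *P2rx4*, 1.24 for *Stra8* and -1.02 for *Trim12c*.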

How the results depend on the processing

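With at least 2 *Neurog3* UMIs required, the cells made up 11.1% of control and 2.98% of *Cnot3*-cKO germ cells, and 634 and 786 genes were past 2-fold against the negatives, instead of 280 and 254. A mitochondrial limit of 10% gave a control share of 19.4%, 156 genes against the control negatives and 126 between genotypes, instead of 251. Leaving out cells over an upper depth bound gave shares of 18.4% and 1.80%, the latter 2 of 111 cells, and 154, 739 and 1232 genes in the 3 comparisons. The bound was the mean plus 2 standard deviations of UMIs and of genes. It was taken over all barcodes passing the depth and mitochondrial limits used here. The study applied a rule of this form to its own set of cells, so its filter may have left out other cells. With genes of at least 20 UMIs the counts were 826, 1096 and 1012. Thinning to 8000 UMIs gave shares of 9.03% and 2.19%, 810 genes in the *Cnot3*-cKO comparison with the negatives and 76 between genotypes. The *Cnot3* log2 ratio was then -2.61, with a wide interval (-7.94 to -0.08). Fewer cells, or fewer UMIs per gene, entered each of these, and the part of this in the changed counts was not tested. Another scaling, the median of ratios, gave 155 higher and 127 lower genes in control, 39 and 222 in *Cnot3*-cKO, and 80 and 186 between genotypes.

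Of 108 named gene ratios past 2-fold, 1408 values were computed under the alternatives, 1385 in the same direction, and 127 under 2-fold. The 23 reversed values follow, and their cause was not tested unless given. At 2 or more *Neurog3* UMIs, *Slamf1* in *Cnot3*-cKO was at -0.62 and *Gm26785* between genotypes at -1.27. Under the upper depth bound, the control ratios were 0.24 for *Cd68*, 1.83 for *C1qb*, 0.24 for *Pf4*, 0.83 for *Tyrobp*, 0.50 for *C1qc* and 0.66 for *Lyz2*, that of *Stra8* in *Cnot3*-cKO was -0.27, and between genotypes *Epcam* was at -0.091 and *Snai1* at 0.084. With doublets left out, the control ratios were 0.67 for *C1qb*, 0.58 for *C1qc*, 1.13 for *Lyz2* and 0.0044 for *Apoe*. With cells of 3 or more macrophage UMIs left out, an alternative chosen after seeing the data, they were 1.23 for *C1qb*, 0.55 for *C1qc*, 1.23 for *Lyz2* and 0.059 for *Apoe*, from few UMIs. After thinning, *Lhx1* in control was at 0.32, and in *Cnot3*-cKO *Upp1* was at -0.058, *Pdgfra* at 1.14 and *Olfr655* at -2.27. Leaving out the cell of most UMIs, also chosen after seeing the data, reversed 0 of 102 ratios and took 8 under 2-fold. No paired analysis was possible because the samples of a genotype are merged in 1 library, so that the prefixes NS and NOV, which their names share across genotypes, could not be used as a block, and for the same reason no replicate could be left out. Depth limits what the 43 *Cnot3*-cKO cells show, since a gene at 1 UMI among them stands at 0.428 CPM.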

Other observations

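Values of 2 further lists stood apart from the comparisons above. Of 14 glutathione genes 14 passed the UMI limit in the *Neurog3*-positive cells, 11 were above 0 in *Cnot3*-cKO over control, 0 were past 2-fold, and the median log2 ratio was 0.13, against 0.47 in the *Neurog3*-negative germ cells. Of the stromal list, *Ptch1*, the Hedgehog receptor, was at 59.2 CPM in the control *Neurog3*-positive cells and 24 CPM in the *Cnot3*-cKO cells, a ratio of -1.30 (-1.72 to -0.91). Its ratio to the control negatives was 1.16 (1.02 to 1.30). The 10 stromal markers summed to 182 CPM in these control cells, so that *Ptch1* made up a large share of the sum, and the part of stromal RNA in it was not tested.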
